A study of Danio rerio with 6 samples.

Results

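The hypoxia-inducible factors and their regulators were examined in *tafazzin*-deficient zebrafish larvae. They are taken here as 10 genes of the 27335 in the deposited expression table: the HIF alpha subunit genes *hif1aa*, *hif1ab*, *hif1al*, *epas1a* and *epas1b*, the oxygen-dependent hydroxylase genes *hif1an* and *egln3*, the ubiquitin ligase subunit gene *vhl*, and the HIF target genes *vegfaa* and *epoa*. The genes were chosen by symbol, and all 10 symbols matched a single row each. RNA-seq libraries came from whole larvae at 5 days post-fertilization (dpf), pooled by 25, with 3 wild-type pools against 3 of maternal zygotic (MZ) *taz*E3/E3 mutants, and no larva received a treatment that the labels give. The mutants carry a single CRISPR/Cas9 allele with a frameshift in exon 3, and lack both maternal and zygotic wild-type *tafazzin*. The series text and the RNA-seq methods of the study both place the genotypes in the same clutch, while elsewhere the study describes incrosses of homozygous mutants and of wild-type siblings. With separate incrosses, parents and genotype cannot be told apart. Pools are numbered 0 to 2 within a genotype, as in the deposited columns.

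HIF is a transcription factor built from an alpha subunit, whose level depends on oxygen, and a stable partner, ARNT. When oxygen is present, prolyl hydroxylases of the EGLN family modify the alpha subunit so that VHL, the substrate receptor of a ubiquitin ligase, marks it for destruction, and the asparaginyl hydroxylase encoded by *hif1an* keeps it from binding coactivators. When oxygen is short, the alpha subunit accumulates and switches on genes of glucose uptake, glycolysis, blood vessel growth and red cell production. Most of this control acts on the protein, which RNA-seq does not measure. Zebrafish keep duplicated copies of several of these genes.

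Expression was given as FPKM, fragments scaled to exon length and to the fragments mapped, so levels can be compared between genes per length. The number of fragments is not in FPKM values, so depth is known only in relative terms. The values that single fragments add to low genes put the depth of the pools at 0.84 to 1.29 times that of mutant pool 0. Wild-type and mutant pools were compared on log2(FPKM + 1) with limma, for the 21843 genes that averaged 0.5 FPKM or more, and a gene passed at a Benjamini-Hochberg adjusted p under 0.05. Fold changes with their intervals are on that scale, which understates the change of low genes. The *tafazzin* transcript, listed as *taz*, had a mean of 11 ± 2.12 FPKM (SD, n = 3 pools) in wild-type and 4.84 ± 1.15 in mutant larvae (limma log2 fold change -1.04, adjusted p = 0.0468). Defining genes of skeletal muscle, liver, nervous system, red cells, epidermis and endothelium were each detected in at least 1 pool, as whole larvae should give. The summed level of 6 epidermal markers was 5222 to 7082 FPKM in wild-type and 3387 to 4616 in mutant pools, without overlap between the genotypes. Most of that sum came from keratin genes such as *krt4* (means 2924 and 2075 FPKM). Of the 6 markers 1 passed, *cyt1* (760.6 and 385.4 FPKM, limma log2 fold change -0.96, adjusted p = 0.0361), where 0.911% of all genes tested did. In contrast, *epcam* of the same list was higher in all mutant pools (106.7 and 178 FPKM, limma log2 fold change 0.71, adjusted p = 0.0595). The part of the lower sum in the results below was not tested.

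None of the 9 HIF genes that could be tested passed between genotypes by limma, where 0.911% of all genes tested did. At an unadjusted p under 0.05, 2 were higher in the mutants, *hif1al* and *epas1b*, and none was lower, against 9.88% and 6.4% of all genes tested. The 3 mutant pools lay above the 3 wild-type pools for *hif1al*, *epas1b* and *vegfaa*, against 11.9% of all genes tested, and the genotypes overlapped for the other 6. Log2 fold changes ran from -0.17 to 0.82 with a median of 0.21, and 7 of the 9 were positive, against a median of 0.002 over all genes tested. The remaining gene, *epoa*, was too low to be tested.

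**Figure D1:**
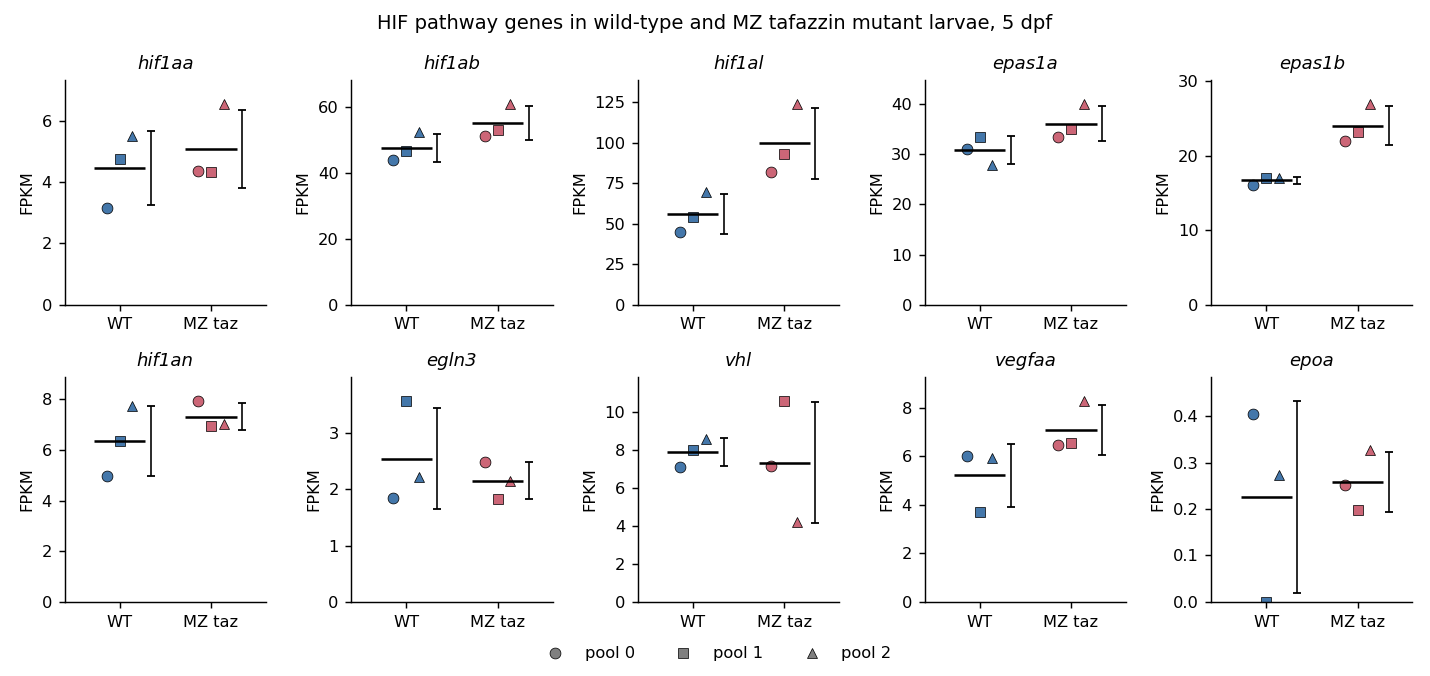
FPKM of each of the 10 genes by pool of 25 larvae at 5 dpf, in wild-type (WT, blue) and MZ *tafazzin* mutants (MZ taz, red); symbols mark the pool number, horizontal lines the mean and vertical bars the SD of 3 pools, and each axis starts at 0. The mutant pools lie above the wild-type pools for *hif1al*, *epas1b* and *vegfaa*, and *epoa* is listed at 0 in wild-type pool 1.

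Among the alpha subunits, *hif1al* had the highest mean and the largest difference between genotypes. The gene, which RefSeq also lists as Hif-3alpha, spans chromosome 15 from 25503954 to 25527622 in GRCz11, the build of all coordinates here. Wild-type (WT) pools 0, 1 and 2 held 45.1, 53.9 and 69.6 FPKM of it, and the mutant pools held 81.7, 93.4 and 124. The lowest mutant pool was above the highest wild-type pool, and the pools of each genotype were spread widely, with a coefficient of variation of 22.1% in wild-type and 21.9% in mutants. The means were 56.2 ± 12.4 and 99.7 ± 21.9 FPKM (SD, n = 3 pools each), a 1.78-fold difference. On the log2 scale the fold change was 0.82 (standard error 0.18, 95% interval 0.40 to 1.23, limma adjusted p = 0.0789), which missed the threshold. An exact two-sided permutation test gave p = 0.1, the smallest that 3 pools against 3 allow. Wild-type pool 2, the wild-type pool nearest to the mutant mean over all genes tested (root mean square log2 distance 0.387, against 0.416 and 0.43), had the highest wild-type value. Without it the log2 fold change of *hif1al* was 0.98 and passed (limma adjusted p = 0.0429). That fit also passed 422 genes over the whole table, against 199 with all pools. With any other pool left out the log2 fold change of *hif1al* lay between 0.65 and 0.95 and did not pass. In whole larvae, more cells that express a gene and more RNA in each of them cannot be told apart.

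The HIF-2 alpha genes *epas1a* and *epas1b*, named for their expression in endothelium in mammals, were both detected well above the target genes. For *epas1b*, on chromosome 13 from 8381003 to 8446341, the WT pools held 16.1, 17 and 16.9 FPKM, against 21.9, 23.2 and 26.9 in the mutant pools. The wild-type pools lay close together (coefficient of variation 2.93%), and all mutant pools were above them. The means of *epas1b* were 16.7 ± 0.488 and 24 ± 2.62 FPKM, a log2 fold change of 0.50 (standard error 0.10, 95% interval 0.26 to 0.73, limma adjusted p = 0.0661; exact permutation p = 0.1). This difference missed the threshold with all pools and in each fit on 5 of the 6 pools (limma adjusted p = 0.0769 to 0.209). Its paralog *epas1a*, on chromosome 12 from 25775755 to 25827164, measured 31.2, 33.4 and 27.8 FPKM in WT, against 33.4, 35 and 40.1 in mutant pools. Mutant pool 0 fell just under wild-type pool 1, so the genotypes of *epas1a* overlapped, and the log2 fold change was 0.22 (95% interval -0.02 to 0.46, limma adjusted p = 0.337).

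The paralogs of the first HIF alpha gene differed by an order of magnitude in level. The gene *hif1ab*, on chromosome 20 from 20326610 to 20355577, measured 44, 46.7 and 52.5 FPKM across the WT pools, against 51.4, 53.2 and 61.1 across the mutant pools. Only the highest wild-type pool overlapped the mutant range, and the log2 fold change of 0.21 did not pass (95% interval -0.02 to 0.44, limma adjusted p = 0.355). The gene *hif1aa*, on chromosome 13 from 31757330 to 31783586, measured 3.14, 4.76 and 5.5 FPKM in WT, against 4.37, 4.33 and 6.55 in mutant pools. These values overlapped throughout, with a log2 fold change of 0.16 (95% interval -0.33 to 0.65, limma adjusted p = 0.762), and its sign turned without wild-type pool 0 (-0.028) or mutant pool 2 (-0.0052).

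**Figure D2:**
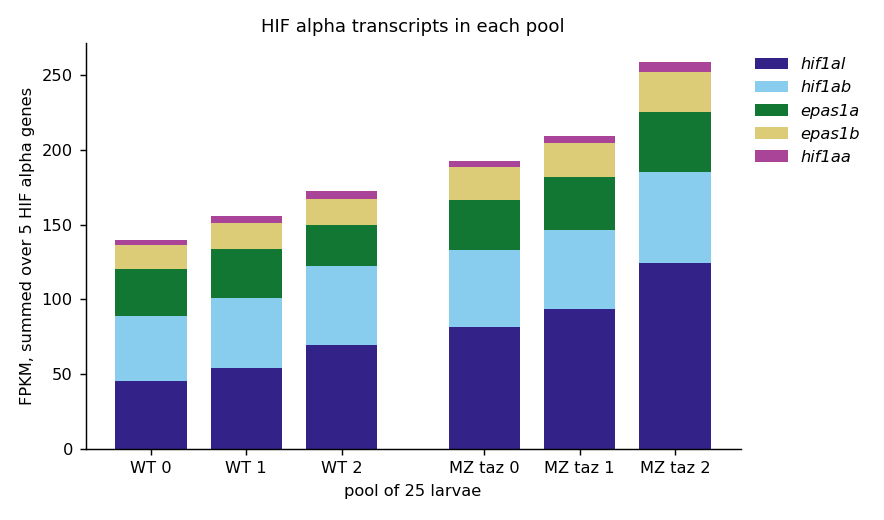
Summed FPKM of the 5 HIF alpha genes in each pool (stacked bars from 0, one colour per gene; WT, wild-type, and MZ taz, MZ *tafazzin* mutants, pools 0 to 2). The wild-type bars reach 139.6 to 172.4 FPKM and the mutant bars 192.8 to 258.8 FPKM, and *hif1al* is the tallest segment in each mutant bar.

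Taken per length, the 5 alpha transcripts summed to 139.6, 155.7 and 172.4 FPKM across the WT pools, against 192.8, 209.1 and 258.8 across the mutant pools. The sums did not overlap, and they are given as a description. Of this sum *hif1al* made up 35.8 ± 4.14% in wild-type and 45 ± 2.8% in mutants (SD, n = 3 pools each), while the share of *hif1ab* was 30.7 ± 0.809% and 25.2 ± 1.54%. The share of *hif1aa* was 2.83 ± 0.509% and 2.29 ± 0.23%. These lower shares did not come with lower levels. Mean FPKM in wild-type and mutants was 47.74 and 55.25 for *hif1ab*, and 4.465 and 5.083 for *hif1aa*. The balance of *epas1a* to *epas1b* was 1.94, 1.97 and 1.64 across the WT pools, against 1.52, 1.51 and 1.49 across the mutant pools. All mutant ratios were below all wild-type ratios, a difference of -0.29 on the log2 scale (exact permutation p = 0.1, adjusted p = 0.3 over 3 ratios). This p of 0.1 is the smallest that 3 pools against 3 allow. The test could therefore not pass for any ratio, and it does not decide whether the balance differed. The ratio of *hif1aa* to *hif1ab* was 0.0713 to 0.105 in wild-type and 0.0814 to 0.107 in mutants, and overlapped (exact permutation p = 1, adjusted p = 1).

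The hydroxylase and VHL genes, whose products hold the alpha subunits in check, were all low and their genotypes overlapped. The asparaginyl hydroxylase gene *hif1an* (chromosome 13, 29952632 to 29980215) measured 4.99, 6.35 and 7.74 FPKM across the WT pools, against 7.93, 6.95 and 7.04 across the mutant pools. Wild-type pool 2 lay within the mutant range of *hif1an*, and the log2 fold change was 0.19 (95% interval -0.17 to 0.55, limma adjusted p = 0.602). The prolyl hydroxylase gene *egln3*, itself a target of HIF and often used as a reporter of hypoxia in zebrafish, measured 1.85, 3.56 and 2.21 FPKM in WT, against 2.49, 1.83 and 2.14 in mutant pools. A single pool, wild-type pool 1, set the higher wild-type mean of *egln3*, since the log2 fold change of -0.14 (95% interval -0.63 to 0.35, limma adjusted p = 0.792) became 0.053 without that pool. The locus of *egln3* in the deposited table (chromosome 17, 9911972 to 9950328) is shared with 2 other genes, one of them *sptssa*, so any sharing of reads between them is not known. The ratio of *hif1an* to *egln3* was 1.78 to 3.49 in wild-type and 3.18 to 3.8 in mutants, and overlapped (exact permutation p = 0.3, adjusted p = 0.45).

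The *vhl* gene (chromosome 6, 40451269 to 40455066) measured 7.11, 7.98 and 8.57 FPKM across the WT pools, against 7.17, 10.6 and 4.22 across the mutant pools. Mutant pools 1 and 2 held the highest and the lowest value of all, with a coefficient of variation of 43.4% in mutants against 9.33% in wild-type. The log2 fold change was -0.17 (95% interval -0.75 to 0.41, limma adjusted p = 0.797), and without mutant pool 2 it was 0.13.

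Of the target genes, *vegfaa*, which encodes a ligand that drives the growth of blood vessels, lies on chromosome 16 from 4287538 to 4317955. It measured 6.03, 3.7 and 5.92 FPKM across the WT pools, against 6.45, 6.55 and 8.29 across the mutant pools. The mutant pools were above the wild-type pools, though the gap between mutant pool 0 and wild-type pool 0 was smaller than the spread within either genotype. Its means were 5.21 ± 1.32 and 7.09 ± 1.03 FPKM, with a log2 fold change of 0.40 (95% interval -0.03 to 0.82, limma adjusted p = 0.337; exact permutation p = 0.1). The erythropoietin gene *epoa*, the hormone of red cell production, is placed on chromosome 7 from 21891251 to 21918877, a locus it shares with *ufsp1*. Its FPKM was 0.405 and 0.272 in wild-type pools 0 and 2, it is listed at 0 in wild-type pool 1, and it was 0.253, 0.197 and 0.326 in the mutant pools. These values overlap and lie under the minimum for testing, so a difference in *epoa* was not detectable at this depth.

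**Figure D3:**
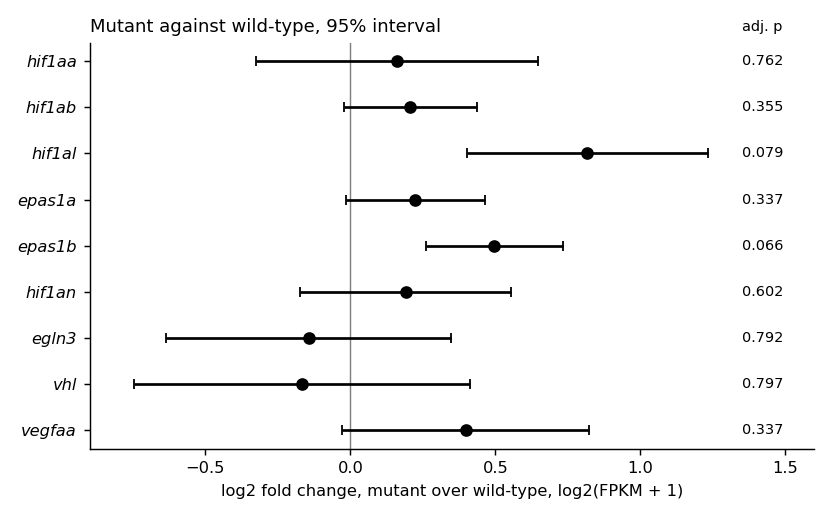
Log2 fold change of mutant over wild-type on log2(FPKM + 1) for the 9 genes tested, with the 95% interval from limma (points and bars) and the adjusted p at the right. The intervals of *hif1al* and *epas1b* lie above 0 and the other 7 include 0, and every adjusted p is above the threshold of 0.05.

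Ordered by level, the 10 genes fell into the same order in both genotypes: *hif1al*, *hif1ab*, *epas1a*, *epas1b*, *vhl*, *hif1an*, *vegfaa*, *hif1aa*, *egln3* and *epoa*. In wild-type larvae the pool ranges of *hif1al* and *hif1ab* overlapped, so their order there is not set. In mutants they were apart, with the lowest *hif1al* pool at 81.7 and the highest *hif1ab* pool at 61.1 FPKM. From *hif1ab* down to *epas1b* each gene was clear of the next in both genotypes. From *vhl* to *hif1aa* neighbours could not be ordered, since each overlapped the next in both genotypes, and in wild-type larvae *hif1aa* also overlapped *egln3*. Some genes further apart in this run were clear of each other. In wild-type larvae the lowest *vhl* pool (7.11 FPKM) was above the highest *vegfaa* pool (6.03). In mutants the lowest *hif1an* pool (6.95) was above the highest *hif1aa* pool (6.55).

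The HIF partners, other hydroxylases and VHL complex were then examined, as a list of 27 genes of which 25 were found and tested. The list also held *hif1al2*, a further HIF alpha-like gene by its symbol (means 1.973 and 1.774 FPKM). It is not part of the alpha sums above. None of the 25 genes passed by limma (0.911% of all genes tested did), and their median log2 fold change was 0.02. At an unadjusted p under 0.05, 3 of the 25 were higher and none lower, against 9.88% and 6.4% of all genes tested. The 2 with the smallest p were prolyl hydroxylase genes. The first, *egln2*, measured 4.35, 6.26 and 6.94 FPKM across the WT pools, against 9.71, 9.18 and 11.2 across the mutant pools, without overlap (limma log2 fold change 0.70, SE 0.17, adjusted p = 0.0937). The second, *egln1b*, measured 5.44, 6.99 and 8.4 FPKM in WT, against 9.19, 10.5 and 11.1 in mutant pools, also without overlap (limma log2 fold change 0.52, SE 0.16, adjusted p = 0.16). Neither passed with any 1 pool left out. Both were picked by their p, and both had all mutant pools on the higher side. Over the list 4 of the 25 had all mutant pools higher and 2 all lower, against 11.9% and 10.5% of all genes tested. The pools of the other 2 EGLN genes overlapped. These were *egln3*, described above, and *egln1a*, at 3.01, 0.688 and 1.53 FPKM in WT, against 1.54, 1.2 and 1.09 in mutant pools. The log2 fold change of *egln1a* was -0.18 (limma adjusted p = 0.813). Of the dimerization partners, *arnt* had a log2 fold change of -0.15 and *arnt2* of -0.13, and neither passed.

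Of 20 HIF target genes of glucose metabolism 2 passed by limma as higher in the mutants and none as lower, against 0.696% and 0.215% of all genes tested. At an unadjusted p under 0.05, 10 of the 20 were higher and none lower, against 9.88% and 6.4% of all genes tested. The median log2 fold change was 0.25, and 12 of the 20 had every mutant pool above the whole wild-type range, against 11.9% of all genes tested. The monocarboxylate transporter gene *slc16a3*, now *slc16a3b* in RefSeq and whose mammalian product exports lactate, measured 8.32, 7.5 and 9.4 FPKM across the WT pools, against 15.1, 16.8 and 20.3 across the mutant pools. Its mean rose 2.07-fold, from 8.41 ± 0.952 to 17.4 ± 2.68 FPKM. The log2 fold change was 0.96 (SE 0.14, 95% interval 0.65 to 1.28, limma adjusted p = 0.0233). The glucose transporter gene *slc2a1b* measured 21.2, 22.3 and 20.8 FPKM in WT, against 29.6, 31.6 and 32 in mutant pools (limma log2 fold change 0.51, adjusted p = 0.0361). With 1 pool left out, the log2 fold change ran from 0.85 to 1.06 for *slc16a3* and from 0.49 to 0.55 for *slc2a1b*. The calls did not hold in most of these fits. Without wild-type pool 0 or 1, or any 1 mutant pool, neither passed, with an adjusted p of 0.0639 to 0.0997 for *slc16a3* and 0.0955 to 0.141 for *slc2a1b* from limma. Without wild-type pool 2, where 422 genes passed over the whole table against 199 with all pools, 3 genes of the list passed, these and *pfkfb4b*.

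None of the other 31 HIF targets passed by limma (0.911% of all genes tested did), with a median log2 fold change of 0.15 and a range from -0.74 to 1.53. Without adjustment, 6 of the 31 were higher and 2 lower at p under 0.05, where 9.88% and 6.4% of all genes tested were. The gene with the smallest p was *angptl4*, which encodes an inhibitor of lipoprotein lipase. It measured 17, 19.8 and 20.4 FPKM across the WT pools, against 26.1, 28.4 and 31.7 across the mutant pools, without overlap (limma log2 fold change 0.57, SE 0.11, adjusted p = 0.0578). The next was *higd1a*, a mitochondrial inner membrane protein gene of the hypoxia-induced domain family, at 3.9, 5.8 and 10.6 FPKM in wild-type and 16.9, 17.1 and 27.5 in mutants. This was the largest log2 fold change of the list, 1.53, with a standard error of 0.30 (limma adjusted p = 0.0585). Wild-type pool 2 was again the wild-type pool nearest to the mutants for *higd1a*, and without it *higd1a* passed (limma log2 fold change 1.86, adjusted p = 0.0204). In that fit 422 genes passed over the whole table, against 199 with all pools.

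**Figure D4:**
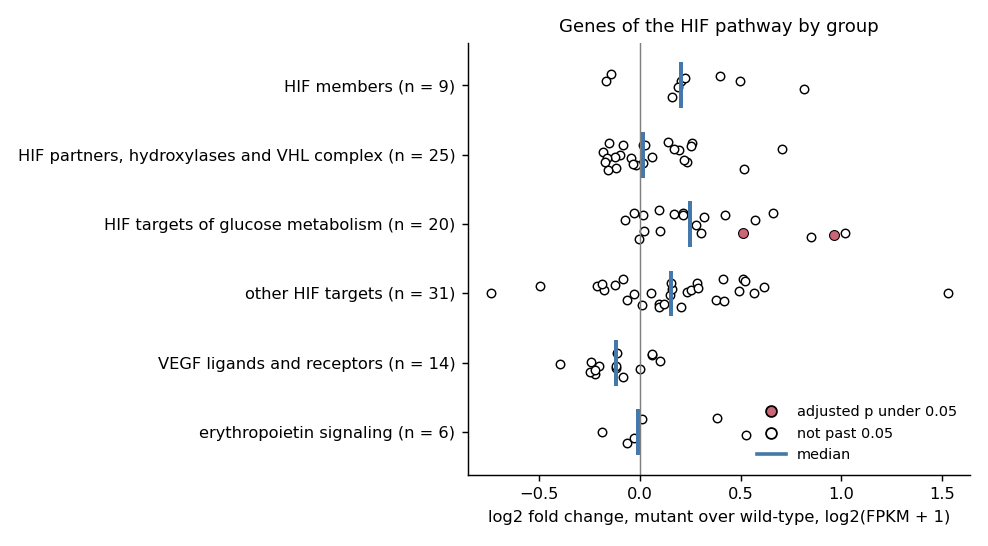
Log2 fold change of mutant over wild-type on log2(FPKM + 1) for the HIF genes and for 5 lists of the pathway, 1 point per gene tested (filled, adjusted p under 0.05 from limma; open, not past it) and a blue line at the median. The 2 filled points are *slc16a3* and *slc2a1b*, and the medians run from -0.12 for VEGF ligands and receptors to 0.25 for HIF targets of glucose metabolism.

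Genes that act with *vegfaa* and *epoa* were examined next. Of 15 VEGF ligand and receptor genes other than *vegfaa*, 14 could be tested and none passed by limma (0.911% of all genes tested did). Their median log2 fold change was -0.12. Without adjustment, none of the 14 was higher and 3 were lower at p under 0.05, beside 9.88% and 6.4% of all genes tested. The co-receptor gene *nrp2a* measured 23.3, 28.1 and 25.1 FPKM across the WT pools, against 22, 22 and 19.8 across the mutant pools (limma log2 fold change -0.25, adjusted p = 0.281). The receptor gene *flt4* measured 2.7, 2.66 and 3.46 FPKM in WT, against 2.1, 2.05 and 1.8 in mutant pools (limma log2 fold change -0.40, adjusted p = 0.289). Both of these genes had all mutant pools below the wild-type pools, as did 3 of the 14 in all, against 10.5% of all genes tested. The summed level of 17 endothelial markers was 83.4 to 90.1 FPKM in wild-type and 79.1 to 84.3 in mutants, with overlap, and none of them was listed at 0 in all pools. Of the 17, 2 had all mutant pools higher, *stab1* (means 5.133 and 6.022 FPKM) and *stab2* (2.025 and 2.711). In 2 others all mutant pools were lower, *sox18* (5.356 and 4.312) and *esama* (7.249 and 5.24). The remaining 13 overlapped, where 22.3% of all genes tested did not overlap, counting both directions.

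Of 7 genes of erythropoietin signaling 6 could be tested, and none passed by limma (0.911% of all genes tested did). Their median log2 fold change was -0.01. Of these 6, 1 was higher and none lower at an unadjusted p under 0.05, the shares over all genes tested being 9.88% and 6.4%. The kinase gene *jak2a* measured 4.89, 4.79 and 4.5 FPKM across the WT pools, against 6.7, 5.8 and 6.98 across the mutant pools, without overlap (limma log2 fold change 0.39, adjusted p = 0.2). The feedback inhibitor gene *cish* measured 12.8, 11 and 18.7 FPKM in WT, against 15.3, 19.6 and 28 in mutant pools, and overlapped (limma log2 fold change 0.52, adjusted p = 0.312). The receptor gene *epor* had a log2 fold change of -0.19 and did not pass. The summed level of 16 erythroid markers was 1329 to 1663 FPKM in wild-type and 1356 to 1443 in mutants, so the wild-type range held the mutant range. Single markers differed in direction. The globin gene *hbbe1.1* was higher in all mutant pools (means 381.7 and 443.8 FPKM). The globin genes *hbbe1.2* (25.39 and 17.07) and *hbbe1.3* (118.7 and 60.44) were lower in all. The other 13 overlapped, where 22.3% of all genes tested did not overlap, counting both directions. None of the 16 passed by limma (0.911% of all genes tested did).

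**Figure D5:**
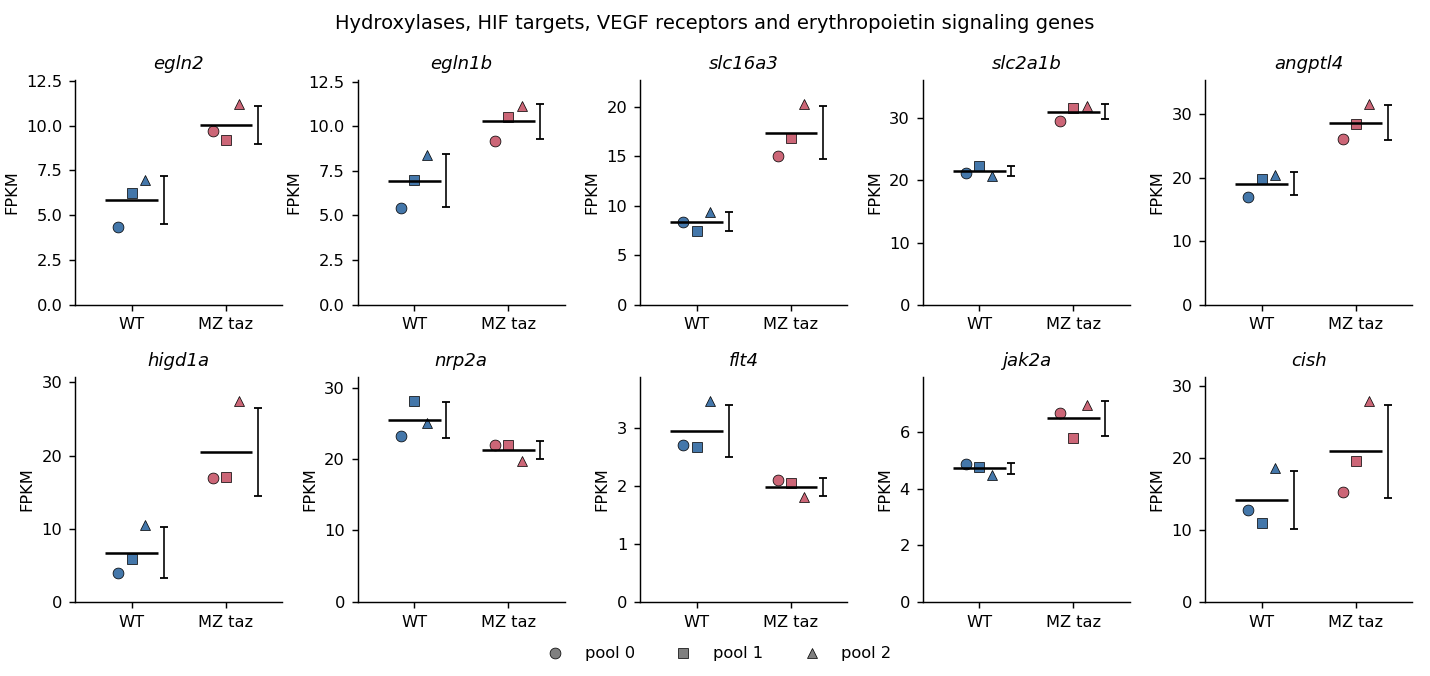
FPKM by pool of the 2 named genes from each pathway list, in wild-type (WT, blue) and MZ *tafazzin* mutants (MZ taz, red); symbols mark the pool number, horizontal lines the mean and vertical bars the SD of 3 pools, and each axis starts at 0. The genes were picked as the 2 of smallest p in each list, which favours genotypes that do not overlap. The genotypes are apart in each panel except that of *cish*, with the mutants lower for *nrp2a* and *flt4*. Of all genes tested, 22.3% did not overlap.

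The genes most like a HIF gene in their profile over the 6 pools were then listed from the 13262 genes that averaged 5 FPKM or more, as a description. Closest to *hif1al* were *ptp4a2b*, a protein tyrosine phosphatase gene (Pearson r = 0.998 over 6 pools), and *stk35*, a serine/threonine kinase gene (r = 0.998). For *epas1b* they were *rtn4a*, of the reticulon family (r = 0.998), and *caspb*, a caspase gene (r = 0.995). For *hif1ab* they were *vamp2*, a vesicle fusion protein gene (r = 0.997), and *fam46ba* (r = 0.996). At the lower cut of an r over 0.95, 357 of the 13262 genes were like *hif1al*, 291 like *epas1b* and 192 like *hif1ab*. The other members had from 8 such genes (*epoa*) to 63 (*epas1a*). Each named gene was the closest of 13262 searched over only 6 pools, and no r was tested.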

How the data were processed

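The deposited FPKM values were made by the authors with Cufflinks 2.2.1, after trimming (Trim Galore 0.4.2) and alignment to GRCz11 (STAR 2.5.3), per the methods and the submitters' notes. The scaling between libraries is not given in the sources used here. Further deposited columns hold the authors' mean FPKM per genotype and their Cuffdiff fold changes, p-values and calls, and a second table holds the genes they called. None of these was used.

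Column names show the genotype but not which labelled sample a column is, so columns were unlabelled replicates of their genotype. At most 0.0603% of genes averaging 5 FPKM or more had the same value in a pair of pools. The labels do not say whether pools had separate parents, so p-values measure the spread between these pools.

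Log2(FPKM + 1) of the 21843 genes averaging 0.5 FPKM or more was fitted with limma 3.58.1 (R 4.3.3; moderated test, mean-variance trend, Benjamini-Hochberg over all genes tested), after a test on simulated data. Single ratios and single members had an exact two-sided permutation test. For members its p is given only where the pools did not overlap. There it is fixed at 0.1, the smallest possible, and adds nothing to the lack of overlap. The study's Cuffdiff test needs reads and was not repeated. Alternatives were a pseudocount of 0.1, no minimum, a minimum of 5 FPKM, quantile or median scaling, no trend, the column number as a block and each pool left out. The members and lists were chosen with earlier results of these data known. Lists came from textbook roles, and 98 of their 100 pathway symbols were found, 9 of them under an older symbol through a RefSeq gene table. Genes named beside the 10 are those called in a list, up to 4 by smallest p, or otherwise the 2 with the smallest p. The 2 genes most like a member are named for *hif1al*, *epas1b* and *hif1ab* alone. *pfkfb4b*, *hif1al2*, *arnt*, *arnt2*, *egln1a* and *epor* were named after their values were seen. So were the globin genes, the epidermal and endothelial genes and the genes under other observations. Coordinates are those of the deposited table.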

Additional observations from a re-analysis of the deposited data

How the results depend on the processing

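The number of genes passing over the whole table was 199. It was 6 without a minimum FPKM, 269 at a minimum of 5 FPKM and 218 with median scaling. It was 38 without the trend and 353 with the column number as a block. With 1 pool left out it was 15 to 422 (15 without wild-type pool 0, 422 without wild-type pool 2). With the block *hif1al* passed at the same log2 fold change of 0.82 (adjusted p = 0.0114 from limma). Same-numbered pools did not deviate together (correlations of 0.035, 0.003 and 0.075), so the numbers were not taken as pairs. With a pseudocount of 0.1 *epoa* differed by 0.42 on the log2 scale, against 0.051 with a pseudocount of 1. Of the HIF targets of glucose metabolism none passed without a minimum or without the trend, 3 passed at a minimum of 5 FPKM and 4 with the block. Of the other HIF targets 2 passed at a minimum of 5 FPKM, 1 with median scaling and 2 with the block. With 1 pool left out these lists gave 0 to 3 and 0 to 1 genes, and log2 fold changes were 0.65 to 0.98 for *hif1al*, -0.028 to 0.30 for *hif1aa*, -0.29 to 0.053 for *egln3*, -0.44 to 0.13 for *vhl* and -0.19 to 0.086 for the ratio of *hif1aa* to *hif1ab*, of which the last 4 turned sign. The causes were not tested. The low level of *epoa*, under the minimum for testing, left no test of it.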

Other observations

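Among the HIF targets that did not pass, a few stood out for their direction or size and were named after their values were seen. The hexokinase gene *hk2* was at 2.79, 2.81 and 4.58 FPKM in wild-type pools 0, 1 and 2 and at 7.25, 5.94 and 10.7 in the mutant pools, and the lactate dehydrogenase gene *ldha* at 85.8, 81.4 and 75.4 and at 106, 120 and 136. Both had every mutant pool above the whole wild-type range, with log2 fold changes of 1.02 and 0.57 (adjusted p = 0.082 and 0.0506 from limma). In the alternative fits *hk2* passed with the column number as a block (limma adjusted p = 0.034). At a minimum of 5 FPKM *ldha* passed (limma adjusted p = 0.041). The carbonic anhydrase gene *ca9*, a widely used marker of hypoxia in mammals, lay the other way, at 5.1, 5.61 and 3.59 FPKM in wild-type and 1.95, 2.99 and 2.38 in mutants (limma log2 fold change -0.74, adjusted p = 0.118). All mutant pools of *ca9* were below all wild-type pools.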
